A study of Mus musculus with 2 samples.

Results

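The mouse genes whose names on the array began with Kcn followed by a lower-case letter encode potassium channel subunits and a few related products, and 95 of the 31791 gene names on the array were of this kind. They were measured by 137 probes, and each of the 34 genes with several probes was represented by the probe with the highest mean processed signal over the 4 RNAs. Members were taken by gene name and by no ratio, but they were chosen with earlier results of these data known. Total RNA came from ureters of NMRI mouse embryos at stage E18.5. The RNA called cDKO here was from embryos with the allele pair Tbx18(cre/+) that were homozygous for floxed alleles both of Tbx2, as Tbx2(fl/fl), and of Tbx3, as Tbx3(fl/fl). Cre is thus driven by Tbx18, a gene of the ureteric mesenchyme, and acts on 2 genes of T-box transcription factors, and the cDKO embryos also had a changed Tbx18 allele. The control RNA was from embryos that were Tbx18(+/+), without Cre, and carried Tbx2(fl/?) and Tbx3(fl/?), that is at least 1 floxed allele of each gene and a further allele that was not specified. Each of 2 two-colour Agilent arrays held both RNAs, with male RNA and the cDKO RNA in red on replicate 1, and female RNA and the cDKO RNA in green on replicate 2. Sex, dye orientation and replicate therefore cannot be told apart. How many embryos gave each RNA is not stated in the labels, so the p-values speak only to the spread between these 2 arrays.

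Potassium channels let potassium leave or enter the cell along its gradient and so hold the membrane potential near rest or return it there after excitation. In smooth muscle this sets how readily voltage-gated calcium channels open and hence how strongly the cell contracts. Pore subunits form the channel, and auxiliary subunits and other binding partners change its gating, its calcium sensitivity or its delivery to the membrane.

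Several features of the RNAs stood beside all results, and the marker counts here stand beside 2.27% of all 23345 measured genes called lower and 2.18% called higher by limma at an adjusted p under 0.05. Of 14 smooth muscle markers, 13 fell, with a median log2 ratio of -2.43 and a summed processed signal of 146263 in cDKO against 803237 in control RNA on replicate 1 and of 88483 against 483868 on replicate 2. In bulk RNA, fewer cells of a type and less RNA per cell cannot be told apart. Of 10 fibroblast markers 7 rose (median 0.76), of 12 measured kidney markers 8 rose (median 1.29 on replicate 1 and 0.69 on replicate 2), and of 12 urothelium markers, all measured, 0 were called by limma, 4 with an unadjusted p under 0.05 and higher. Of 12 measured markers of skeletal and cardiac muscle, 7 fell (median -1.84), and of 13 measured markers of autonomic neurons 1 rose (median 0.11). Endothelial (10 genes, median 0.37), red blood cell (8, median 0.47), Schwann cell (9, median 0.19) and pericyte lists (7, median 0.070) had 2, 1, 1 and 0 members higher and 0 lower, and at an unadjusted p under 0.05 the genes higher were 6, 6, 2 and 2 and those lower 0, 0, 0 and 2. The floxed genes were higher in cDKO RNA, with ratios of 0.74 ± 0.42 for Tbx2 (SD, n = 2; limma adjusted p = 0.0273) and 0.66 ± 0.16 for Tbx3 (SD, n = 2; adjusted p = 0.0305), and what part of each transcript the probes read relative to the floxed sequence was not analysed here. The library labelled female cDKO went against its label in part, since the Y-linked gene Ddx3y had a signal of 359.6 there against 4.46 in female control RNA. On the same array 9 liver plasma protein genes, a list added after that array's ratios had been seen, had a median ratio of 2.70, against -0.33 on replicate 1. Among all 23345 measured genes, 51 (0.218%) were at least 4-fold higher on replicate 2 and under 2-fold changed on replicate 1. Of the 72 measured Kcn genes 0 were, and at so low a share this does not set them apart. The part of any of these features in the channel results was not tested. For each Kcn gene called by limma, the signals of both arrays are given. Several other results are given in the text only as a mean, which cannot be read without replicate 2. For Kcn genes and channel partners, the plots of ratios by gene show both arrays. Tbx2 and Tbx3 are not in those plots. Their ratios were 1.04 and 0.78 on replicate 1, and 0.44 and 0.55 on replicate 2.

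Of the 95 Kcn genes, 72 passed the filter for dim probes, which asked for a signal well above background in one RNA group on both arrays. The other 23 had signals of at most 118.9, a value of Kcnk9, which was left out for an outlier spot. Among the 72, 10 fell and 6 rose in cDKO RNA by limma at an adjusted p under 0.05. These are 13.9% and 8.33% of the measured members, where 2.27% and 2.18% of all 23345 measured genes were called lower and higher. Of the 16, Kcnj12, Kcng1, Kcnh1 and Kcnv2 passed the filter only through the RNA group in which they were high, so they had to differ. With a filter on both RNAs of both arrays, 61 Kcn genes were measured, 8 fell and 4 rose (19.7%), beside 5.58% of all genes called either way. At least 2-fold on both arrays, 5 Kcn genes were lower and 1 was higher (6.94% and 1.39%), beside 0.728% and 0.411% of all genes. With the filter on both RNAs these counts were 4 and 0, without Kcnj12 and Kcnh1. The changes were of both signs, and 36 ratios lay below 0 and 36 above. The median over the 72 genes was -0.0039 (0.059 on replicate 1, -0.044 on replicate 2), beside 0.0047 over all genes, and 51 of the 72 had a mean within 0.5 of 0. The processed signals of the cDKO and control RNAs did not overlap for 30 of the 72 genes (41.7%), beside 19.4% of all genes, and did not overlap for any of the 16 called genes. All 16 kept their direction in the other settings in which they were measured, while 8 kept their call with the scanner software's processed signals, 6 with median centring in place of loess, and 0 with the deposited value table. Kcnd3, Kcnn2 and Kcnmb1 lost their call only with that table, as did Kcnj12 and Kcnh1 apart from the filter on both RNAs, under which they were not measured. Ratios below are log2 cDKO over control, as mean ± SD over the 2 arrays, after a background correction that adds an offset of 50 and so understates the change of dim probes.

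**Figure D1:**
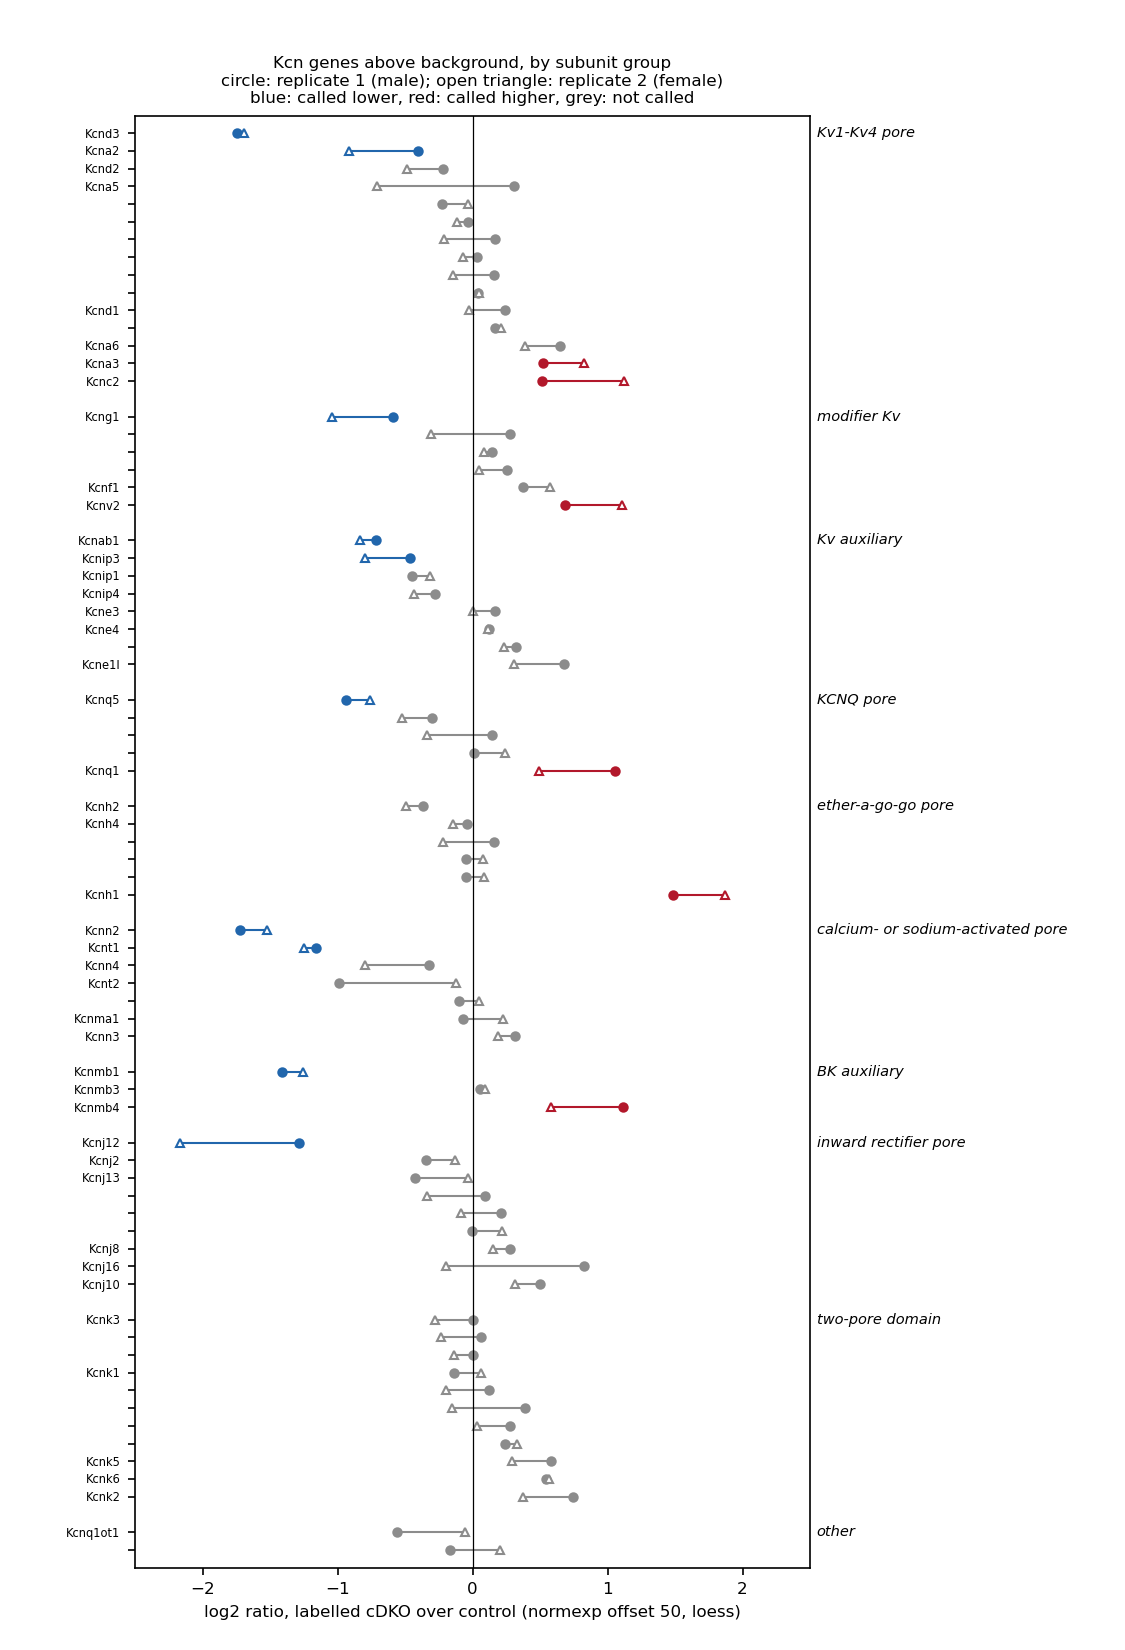
Log2 ratio of cDKO over control RNA (x axis) of the 72 measured Kcn genes by subunit group (y axis), with circles for replicate 1, open triangles for replicate 2 and called genes in colour; genes not named in the text carry no label. Means run from Kcnj12 at -1.73 to Kcnh1 at 1.68, and 8 of the 10 subunit groups hold a called gene.

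Among the 17 pore subunits of the Kv1 to Kv4 voltage-gated families, 15 were measured, 2 fell and 2 rose, with a median of -0.021. Kcnd3, the Kv4.3 pore subunit of the fast-inactivating A-type current, had processed signals of 679 in cDKO and 2475 in control RNA on replicate 1, and of 516 and 1715 on replicate 2. Both control signals were thus well above both cDKO signals. Its ratios were -1.75 and -1.70, a mean of -1.72 ± 0.037 (SD, n = 2) or 3.30-fold lower (limma adjusted p = 6.01e-06); its probe lies at chr3:105476854-105476913 (mm9). The other Kv4 subunits were not called, with Kcnd1 (Kv4.1) at 0.24 on replicate 1 and -0.027 on replicate 2, and Kcnd2 (Kv4.2) at -0.22 and -0.49.

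In the Kv1 family, whose subunits form delayed rectifiers, Kcna2 fell and Kcna3 rose. Kcna2 (Kv1.2; chr3:106909700-106909759, mm9) had dim signals of 35.7 in cDKO against 75.1 in control RNA on replicate 1 and 29.5 against 82.1 on replicate 2. Its ratio was -0.66 ± 0.36 (SD, n = 2; limma adjusted p = 0.0458). Kcna3 (Kv1.3, best known from lymphocytes) had signals of 170 against 103 and of 162 against 81.3, and a ratio of 0.67 ± 0.22 (SD, n = 2; adjusted p = 0.0305; chr3:106840925-106840984, mm9). These neighbours, whose probes lie 68.8 kb apart, thus moved in opposite directions. The leukocyte and macrophage list stood at a median of -0.11, with 0 of 9 genes called by limma and 1 at an unadjusted p under 0.05, which was lower. Kcna6 (Kv1.6) was at 0.52 (adjusted p = 0.109), and Kcna5 (Kv1.5, a smooth muscle subunit) was at 0.31 on replicate 1 and -0.71 on replicate 2. Kcnc2 (Kv3.2, a subunit of fast-spiking neurons; chr10:111902778-111902837, mm9) was the other pore gene that rose, with signals of 125 against 58.4 and of 86.2 against 26.9 and a ratio of 0.82 ± 0.43 (SD, n = 2; adjusted p = 0.0144).

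**Figure D2:**
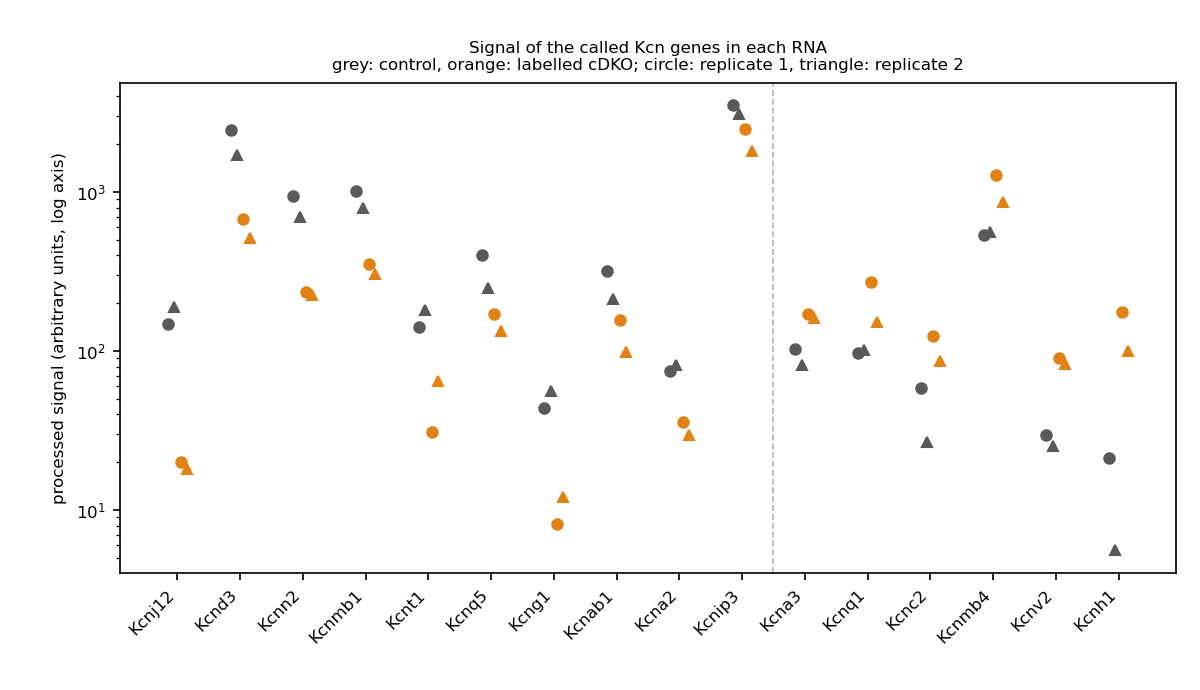
Processed signal (log axis, arbitrary units) of each called Kcn gene in the cDKO and control RNAs of both arrays, 1 point per RNA. For each of the 16 genes both cDKO points lie on the same side of both control points; levels of different probes cannot be compared.

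Among the 12 auxiliary subunits of voltage-gated channels, 8 were measured, 2 fell and 0 rose (median -0.14). Kcnab1, a cytoplasmic beta subunit that speeds inactivation of Kv1 channels (chr3:65181718-65181777, mm9), had signals of 158 in cDKO against 322 in control RNA on replicate 1 and of 99.2 against 213 on replicate 2. Its ratio was -0.78 ± 0.086 (SD, n = 2; limma adjusted p = 0.0106). Kcnip3, a calcium-binding protein that is also known as the transcriptional repressor DREAM and associates with Kv4 pores (chr2:127282242-127282301, mm9), had signals of 2492 against 3530 and of 1809 against 3094. Its ratio was -0.63 ± 0.24 (SD, n = 2; adjusted p = 0.0459), but a second probe of the gene was at 0.56 on replicate 1 and -0.13 on replicate 2 (adjusted p = 0.675), so the probes disagreed. The other Kv4 partners of this family, Kcnip1 (-0.38, adjusted p = 0.263) and Kcnip4 (-0.36), were not called. Dpp6, a transmembrane partner that speeds Kv4 gating, fell alongside Kcnd3: its signals were 980 against 2099 and 699 against 1649, and its ratio was -1.10 ± 0.15 (SD, n = 2; adjusted p = 0.000677). Its relative Dpp10 was at -0.022. Of the single-span Kcne subunits, Kcne1l (0.49, adjusted p = 0.141), Kcne3 (0.084) and Kcne4 (0.12 on both arrays) were not called.

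The modifier subunits, which form no channel alone and join Kv2 pores, had 6 of 10 members measured, 1 lower and 1 higher. Kcng1 (Kv6.1; chr2:168087201-168087260, mm9) had signals of 8.13 against 44.2 and of 12.1 against 56.3. It was not well above background in cDKO RNA on either array, so the size of its change was not measured. The ratios of -0.59 on replicate 1 and -1.04 on replicate 2 gave -0.82 ± 0.32 (SD, n = 2), or 1.76-fold lower (limma adjusted p = 0.0109). Raising the dim group's mean to the lowest measurable signal of each array, where that signal was higher, left this value as it was. The cDKO values of Kcng1 were not below that signal, so this step could not change the 1.76-fold and sets no bound. A second Kcng1 probe was at -0.54 (adjusted p = 0.0833). Kcnv2 (Kv8.2, known from photoreceptors; chr19:27411522-27411581, mm9) rose, with signals of 90.9 against 29.8 and of 82.8 against 25.3 and a ratio of 0.90 ± 0.30 (SD, n = 2; adjusted p = 0.00520), though control RNA was above background on 1 of 2 arrays. Kcnf1 (Kv5.1) was not called at 0.47 (adjusted p = 0.149). Its control RNA was above background on neither array. With the dim group's mean raised in the same way the difference was 1.20-fold.

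Of 8 ether-a-go-go pore genes, 6 were measured, and 1 rose. This was Kcnh1 (Kv10.1, the eag1 channel, known from brain and from proliferating cells; chr1:194333330-194333389, mm9), the Kcn gene with the highest ratio. Its signals were 175 in cDKO against 21.2 in control RNA on replicate 1, and 100.6 against 5.58 on replicate 2. The control RNA was well above background on 1 of the 2 arrays. The ratios of 1.49 and 1.87 gave 1.68 ± 0.27 (SD, n = 2), or 3.20-fold higher (limma adjusted p = 1.27e-05). With an offset of 0 the mean ratio was 2.08, and since control RNA was not well above background on replicate 2, the size of the change on that array was not measured. Kcnh2 (the hERG channel of cardiac repolarisation) was at -0.43 (adjusted p = 0.193), and Kcnh4 at -0.093.

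All 5 KCNQ pore genes, which encode slowly opening channels active near the resting potential, were measured, and 1 fell and 1 rose. Kcnq5 (Kv7.5, a vascular and visceral smooth muscle member; chr1:21389067-21389126, mm9) had signals of 170 against 402 and of 134 against 248. Its ratio was -0.85 ± 0.12 (SD, n = 2; limma adjusted p = 0.00583). Kcnq1 (Kv7.1, of heart and epithelia; chr7:150612887-150612946, mm9) had signals of 274 against 97.6 and of 153 against 101, and a ratio of 1.06 on replicate 1 and 0.50 on replicate 2 (mean 0.78 ± 0.40, SD, n = 2; adjusted p = 0.0191). Beside it, the median of the kidney markers was 1.29 on replicate 1 and 0.69 on replicate 2, and its part in the Kcnq1 ratio was not tested. Kcnq1ot1, the long noncoding RNA transcribed from within the Kcnq1 locus, was at -0.30 (adjusted p = 0.449).

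Of the 8 pore genes of calcium- or sodium-activated channels, 7 were measured, with 2 lower and 0 higher. By the mean of both arrays their median, -0.56, was the lowest of the subunit groups, and it was the value of Kcnt2. By array the median was -0.32 on replicate 1 and -0.12 on replicate 2. On replicate 2 the KCNQ group was lower, with a median of -0.34. Kcnn2, the SK2 small-conductance calcium-activated channel, had signals of 237 in cDKO against 949 in control RNA on replicate 1 and of 226 against 702 on replicate 2. Its ratio was -1.62 ± 0.14 (SD, n = 2), or 3.07-fold lower (limma adjusted p = 1.30e-05). The related SK3 and IK genes did not pass the test: Kcnn3 was at 0.25 (adjusted p = 0.516) and Kcnn4 at -0.56 (adjusted p = 0.0990). Kcnt1, a sodium-activated channel (chr2:25773734-25773793, mm9), had signals of 31.2 against 142 and of 64.7 against 182 and a ratio of -1.20 ± 0.064 (SD, n = 2), or 2.30-fold lower (adjusted p = 0.000268). Its relative Kcnt2 was at -0.99 on replicate 1 and -0.12 on replicate 2 (adjusted p = 0.157).

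The large-conductance calcium-activated channel, BK, joins a pore encoded by Kcnma1 with beta and gamma subunits that raise or tune its calcium sensitivity. The pore gene was not called: Kcnma1 had signals of 856 against 895 and of 823 against 697, and its 3 probes were at 0.078, 0.077 and -0.020. Kcnmb1, the beta1 subunit typical of smooth muscle (chr11:33870457-33870516, mm9), fell. Its signals were 354 in cDKO against 1021 in control RNA on replicate 1 and 304 against 789 on replicate 2. The ratio was -1.33 ± 0.11 (SD, n = 2), or 2.52-fold lower (limma adjusted p = 0.000103). Kcnmb4, the beta4 subunit known from neurons (chr10:115854977-115855036, mm9), rose instead, with signals of 1287 against 537 and of 864 against 561. Its ratio was 1.12 on replicate 1 and 0.58 on replicate 2 (mean 0.85 ± 0.38, SD, n = 2; adjusted p = 0.0096), and a second probe was at 0.40 (adjusted p = 0.244). Kcnmb3 was at 0.075. Of the gamma subunits, which share leucine-rich repeats, Lrrc26 fell, with signals of 210 against 417 and of 125 against 235 and a ratio of -0.77 ± 0.022 (SD, n = 2; adjusted p = 0.0106), Lrrc55 fell (-0.63, adjusted p = 0.0471), and Lrrc38 was at 0.022.

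Of 15 inward rectifier pore genes, which pass current most readily at negative potentials, 9 were measured, 1 fell and 0 rose. Kcnj12 (Kir2.2, of the strongly rectifying Kir2 family; chr11:60884556-60884615, mm9) had signals of 20.0 in cDKO against 147 in control RNA on replicate 1 and of 18.1 against 190.3 on replicate 2. Its cDKO RNA was above background on 1 of 2 arrays. The ratios of -1.29 and -2.17 gave -1.73 ± 0.62 (SD, n = 2), or 3.31-fold lower (limma adjusted p = 5.18e-05). With an offset of 0 the mean ratio was -2.08, and the size is uncertain on the array where cDKO RNA was not above background. Kcnj2 (Kir2.1) was at -0.35 and -0.13. Kcnj8 (Kir6.1, the pore of the smooth muscle and pericyte ATP-sensitive channel) had signals of 1384 against 1145 and of 937 against 833 and a ratio of 0.21 (adjusted p = 0.617). Of the sulfonylurea receptors of ATP-sensitive channels, Abcc9 was at -0.41 (adjusted p = 0.241) and Abcc8 fell (-0.70 ± 0.43, SD, n = 2, adjusted p = 0.0395). Which of them joins Kcnj8 here was not tested. Kcnj10 was at 0.40 (adjusted p = 0.232), Kcnj13 was at -0.43 and -0.035, and Kcnj16 was at 0.83 and -0.20.

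None of the 11 measured members among the 14 two-pore domain genes, which carry background potassium current, was called by limma, beside 4.45% of all genes called either way; 3 had an unadjusted p under 0.05, all higher. Their ratios ran from -0.14 to 0.56, with a median of 0.12. Kcnk1 (TWIK-1) had signals of 8763 against 9849 and of 7423 against 7289. The most positive were Kcnk2 (TREK-1) at 0.56 (limma adjusted p = 0.0855), Kcnk6 at 0.55 (adjusted p = 0.0764) and Kcnk5 at 0.44, each above 0 on both arrays. Kcnk3 (TASK-1) was at 0.00089 on replicate 1 and -0.27 on replicate 2.

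**Figure D3:**
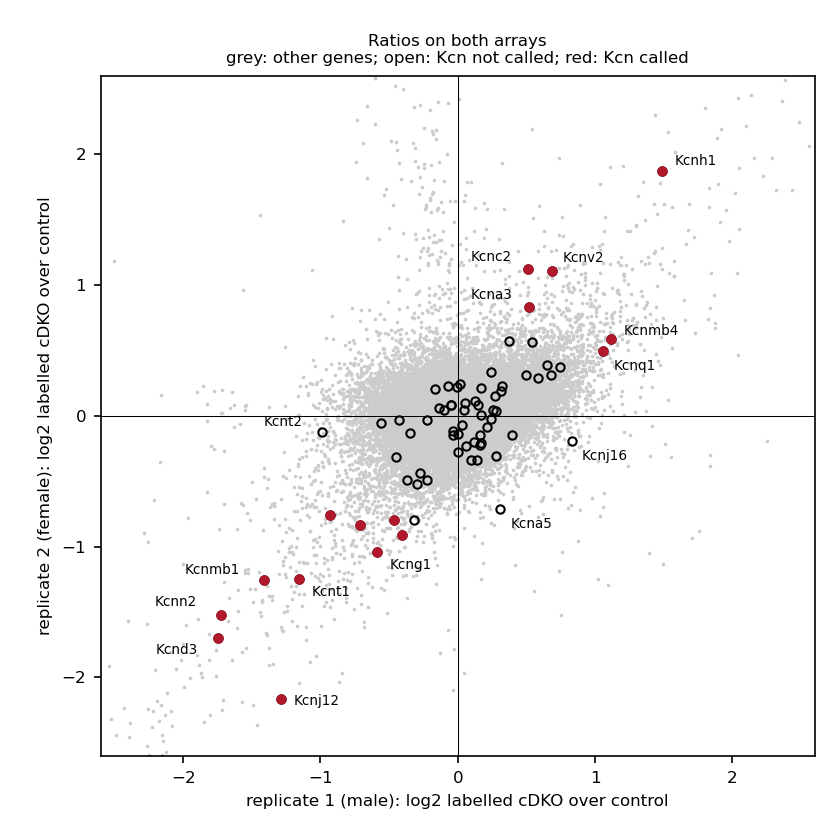
Log2 ratio of cDKO over control on replicate 1 (x axis) against replicate 2 (y axis) for all measured genes (grey) and for Kcn genes not called (open) and called (red); genes beyond ±2.6 are not drawn. Each of the 16 called Kcn genes has the same sign on both arrays, and Kcna5 and Kcnj16 lie on opposite sides of 0.

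The arrays ordered the Kcn genes in a similar way. Across the 72 genes the ratios of the arrays correlated with r = 0.835 and rho = 0.717, beside 0.488 and 0.329 over all 23345 genes; these are descriptions across genes of arrays that share a slide, and genes are not independent. The sign was the same on both arrays for 49 Kcn genes (68.1%), beside 59.7% of all genes. Of 21 measured genes with a second measured probe, 6 had a second probe of the opposite sign, and of the 3 called genes with one (Kcng1, Kcnip3 and Kcnmb4), 0 had it called.

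The wider list of 34 channel partners and other channels of membrane potential, of which 31 were measured, had 9 lower and 0 higher members by limma (29.0% lower, beside 2.27% of all genes; 12 lower and 1 higher at an unadjusted p under 0.05) and a median of -0.052. The list was chosen with earlier results of these data known, so its share is a description and not a test against all genes. The count of 9 fell to 2 with the processed signals, 2 with median centring and 4 with the channels fitted separately. It fell to 0 with the deposited value table. Next to Dpp6, Lrrc26, Lrrc55 and Abcc8, these were the scaffold genes Akap5, Cav1 and Cav3, the calcium channel subunit gene Cacna2d1 and the calcium release channel gene Itpr1. Akap5, which anchors kinases and calcineurin at channels, had signals of 175 in cDKO against 1025 in control RNA on replicate 1 and of 144 against 835 on replicate 2, and a ratio of -2.30 ± 0.11 (SD, n = 2; limma adjusted p = 2.63e-07). Cav3, the caveolin of muscle, was at -2.34 (adjusted p = 3.54e-07) and Cav1, a widely expressed caveolin, at -1.12 (adjusted p = 0.000719). Itpr1 was at -0.73 (adjusted p = 0.0194), and Cacna2d1 was at -1.17 on replicate 1 and -0.37 on replicate 2 (adjusted p = 0.0330).

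**Figure D4:**
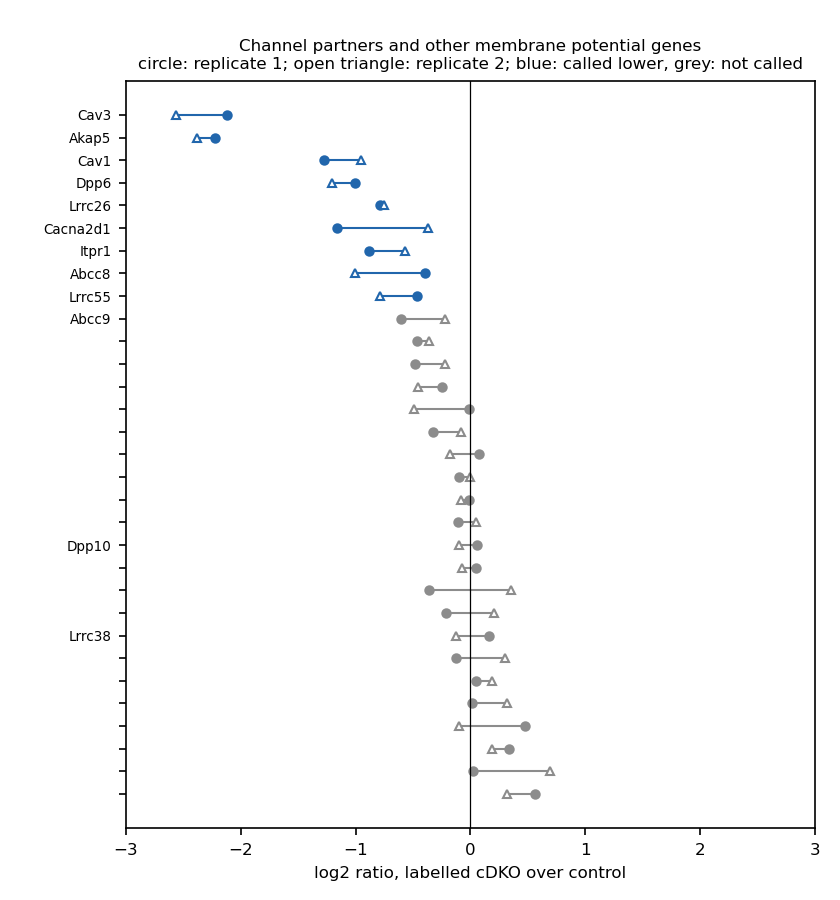
Log2 ratio of cDKO over control (x axis) of the 31 measured partner genes (y axis), with circles for replicate 1, open triangles for replicate 2 and called genes in blue; genes not named in the text carry no label. The list was chosen with earlier results of these data known. The 9 called genes are all lower, with means from -2.34 for Cav3 to -0.63 for Lrrc55. With the processed signals or with median centring 2 were called, and 0 with the deposited value table.

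The 250 bases before the transcription starts of Kcn genes were searched for T-box motifs, because the floxed genes encode T-box factors, and for the CArG box that serum response factor binds in smooth muscle genes. Sequences were those of RefSeq on GRCm38.p6, read on both strands, and covered 95 starts of 70 Kcn genes, 11 of them called. GGTGTGA was found at 5 of 95 Kcn starts (5.26%) and at 3.33% of all 32851 starts, and at 0 of the 19 starts of called genes. The shorter AGGTGT, which shares the letters GGTGT with it, was found at 15 Kcn starts (15.8%) and at 11.8% of all. Among called genes it was at 1 start, that of Kcna2, beginning 70 bases before the start. The CArG box was found at 0 Kcn starts and at 1.47% of all. A missing match says only that these letters are not in this window. These 4 called genes are shown: Kcnd3 and Kcnmb1, a pore and an auxiliary subunit gene that fell, Kcna2, which holds the motif, and Kcnh1, which rose, all on the + strand, with the match in capitals, which reads AGGTGT on the other strand.
Kcnd3, chr3:105451640-105451889, 62.8% G or C: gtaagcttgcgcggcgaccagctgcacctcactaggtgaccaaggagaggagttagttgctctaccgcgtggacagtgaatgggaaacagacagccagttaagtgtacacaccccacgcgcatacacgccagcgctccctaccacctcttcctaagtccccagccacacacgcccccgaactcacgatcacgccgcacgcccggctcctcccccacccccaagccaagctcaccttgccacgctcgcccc
Kcnmb1, chr11:33962763-33963012, 50.8% G or C: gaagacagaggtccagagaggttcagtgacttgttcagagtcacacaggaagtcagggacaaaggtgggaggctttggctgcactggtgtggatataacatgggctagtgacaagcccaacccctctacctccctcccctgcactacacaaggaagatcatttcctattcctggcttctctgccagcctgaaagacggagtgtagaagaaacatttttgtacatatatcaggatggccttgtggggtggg
Kcna2, chr3:107101317-107101566, 62.4% G or C: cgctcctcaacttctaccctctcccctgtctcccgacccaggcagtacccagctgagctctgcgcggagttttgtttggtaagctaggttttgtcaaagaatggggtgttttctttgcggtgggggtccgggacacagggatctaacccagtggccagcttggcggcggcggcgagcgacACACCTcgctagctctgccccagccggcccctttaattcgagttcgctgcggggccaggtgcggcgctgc
Kcnh1, chr1:192190527-192190776, 62.0% G or C: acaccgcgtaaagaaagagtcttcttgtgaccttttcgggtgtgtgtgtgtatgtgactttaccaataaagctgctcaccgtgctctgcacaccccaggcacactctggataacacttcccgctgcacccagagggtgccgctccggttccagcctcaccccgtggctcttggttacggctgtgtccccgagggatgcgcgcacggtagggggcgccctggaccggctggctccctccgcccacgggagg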

How the data were processed

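The members and the gene lists were chosen with earlier results of these data known. Per the file headers, Agilent Feature Extraction 10.7.3.1 gave each spot a mean and a background intensity per channel, a processed signal intensity (background-subtracted and dye-normalized), a log10 ratio of red over green, and 0 or 1 flags for background, saturation and outliers. A further table of values, deposited by the authors as a score with no scale given, equalled the signed fold change of cDKO over control processed signals after floors of 26.9 and 20.4, within 0.001 log2 for 100% of values, with a median of 1 on both arrays.

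Background was corrected by normexp (offset 50) on the mean intensities of 43020 gene spots, followed by loess on each array (limma 3.58.1, R 4.3.3), without control and outlier spots (272 and 226). The 29274 of 39429 probes well above background in one RNA group on both arrays were kept. Ratios were turned to cDKO over control from the dyes in the labels. The mean of 2 ratios was tested against 0 with limma (two-sided, Benjamini-Hochberg over kept probes, threshold 0.05), with 1 residual and 13.9 prior degrees of freedom. The fit was tested on simulated data.

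Kcn genes named were those called or changed at least 2-fold on both arrays, the 8 with the highest signal, up to 4 per subunit group with the largest ratio of 1 direction, and smooth muscle channels; some genes that this rule takes are not reported here. Others are given as examples or neighbours chosen after their values were seen. Probe coordinates are those of the files (mm9), whose exon or UTR annotation was not used here; promoters are from RefSeq (GRCm38.p6). Of 95 Kcn genes, 92 had an accession in the RefSeq table. Protein sequences were not analysed here. Alternatives were other signals, offsets, normalizations, filters, probe rules, variance models, thresholds, member names and each array alone.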

Additional observations from a re-analysis of the deposited data

Results flagged for a closer look

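Kcna5 and Kcnj16 had ratios of opposite sign on the male and the female array that differed by at least 2-fold. The log2 ratio of replicate 1 minus that of replicate 2 was 1.02 for Kcna5 (0.31 and -0.71) and 1.02 for Kcnj16 (0.83 and -0.20). With 1 array each the difference was not tested, and sex, dye orientation and replicate cannot be told apart.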

How the results depend on the processing

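All 16 called Kcn genes kept their direction in each setting in which they were measured, but their calls depended on the processing. The counts of Kcn genes called lower and higher, 10 and 6, became 6 and 3 with the processed signals, 5 and 1 with median centring, 6 and 3 at an adjusted p under 0.01, and 0 and 0 with the deposited value table, where 28 Kcn genes and 2431 of all genes had an unadjusted p under 0.05. Each array pairs its 2 RNAs; fitted as separate channels with no replicate block, the counts were 5 and 1. With the filter on both channels they were 8 and 4 of 61 measured. The 9 partner genes called lower became 2, 2, 0, 6, 4 and 4 with the processed signals, median centring, the deposited table, offset 0, an adjusted p under 0.01 and no replicate block. All genes called, 1040, became 344 with the processed signals (210 lower, 134 higher), 320 with median centring, 0 with the deposited table, 1594 with an intensity trend (663 lower, 931 higher), 590 at 0.01 and 438 with no replicate block. The 5 genes at least 2-fold lower on both arrays became 8 with the processed signals, 8 at 1.5-fold and 1 at 3-fold. The 1 gene at least 2-fold higher became 4 with the processed signals, 0 with the filter on both channels, 3 with the deposited table, 2 at 1.5-fold and 0 at 3-fold, and was 3 without replicate 1 and 3 without replicate 2. The cause was not tested. With the deposited table Kcnd3, Kcnn2, Kcnmb1, Kcnj12 and Kcnh1 had an adjusted p of 0.147 to 0.192. Kcnip3 lost it in 8 of 14 settings. Aquantile leaves ratios as they are. Kcnj12, Kcng1, Kcnh1 and Kcnv2 were dim in 1 RNA group, so background sets the size of their ratios.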
